A study of Homo sapiens with 6 samples.

Results

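The genes described here encode the aminoacyl-tRNA synthetases, found in the count table by a rule on gene name and gene type: every protein-coding row with a synthetase symbol (a single letter for the amino acid followed by ARS, or EPRS, FARSA or FARSB, with or without a closing digit). The rule found 38 genes among 60662 rows, of which 21 with names not ending in 2 are called cytosolic and 17 with names ending in 2 are called mitochondrial. All 38 were expressed highly enough to be among the 14425 genes tested. Their transcripts were counted from stranded mRNA libraries of TC-71, an established Ewing sarcoma cell line, grown without a treatment. Wildtype TC-71 cells, 3 libraries, were compared with TC-71 cells carrying a knockout of XG, the gene of the Xg blood group glycoprotein, 3 libraries. Nothing in the labels tells if the knockout is a pool or a single clone, nor if replicates came from separate cultures, and each p-value therefore covers the spread between libraries, which may be technical.

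Aminoacyl-tRNA synthetases join each amino acid to its tRNA, the step that sets the meaning of the genetic code. Most amino acids have separate cytosolic and mitochondrial enzymes, both encoded in the nucleus, and the enzymes fall into class I and class II by the fold of their catalytic domain. GARS1 and KARS1 each supply both compartments, glutaminyl-tRNA of mitochondria is made indirectly through an amidotransferase, and EPRS1 carries the glutamyl and prolyl activities of the cytosol in one chain. Several cytosolic synthetases sit together in the multi-synthetase complex, and many cytosolic synthetase genes are known targets of ATF4, the transcription factor that the kinase GCN2 switches on when uncharged tRNA accumulates.

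ATF4 acts through C/EBP-ATF response elements, and the sites are shown because the cytosolic synthetases listed as ATF4 targets are compared with the rest further on. RefSeq promoter windows (GRCh38.p14, 250 bases before to 50 after a transcript start) were matched to 30 of the 38 genes and searched on both strands for the letters TGATGNAAN. They were found in 7 of the 10 matched genes that are on the ATF4 target list, in 0 of the 6 other cytosolic genes matched, and in 1 of 14 mitochondrial genes, against 4.45% of all 27305 gene symbols with a window. Sequences are given along the strand of the gene with the match in capitals and 10 bases on each side.
AARS1 (chr16:70289676-70289704, minus strand): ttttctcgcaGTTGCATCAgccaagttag
CARS1 (chr11:3057408-3057436, minus strand): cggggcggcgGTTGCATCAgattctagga
GARS1 (chr7:30594834-30594862, plus strand): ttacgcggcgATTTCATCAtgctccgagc
IARS1 (chr9:92293693-92293721, minus strand): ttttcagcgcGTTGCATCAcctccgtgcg
MARS1 (chr12:57488053-57488081, plus strand): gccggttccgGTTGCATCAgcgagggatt
NARS1 (chr18:57621804-57621832, minus strand): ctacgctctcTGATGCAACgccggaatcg
TARS1 (chr5:33440956-33440984, plus strand): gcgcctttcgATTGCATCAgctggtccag
YARS2 (chr12:32756076-32756104, minus strand): tccacactgcTGATGGAAAaattaagttt
In 6 of these genes, all but NARS1 and YARS2, the motif lies on the strand opposite to the gene, so that its reverse complement is read. The same letters, GTTGCATCA, stand in AARS1, CARS1, IARS1 and MARS1, and NARS1 carries their reverse complement. In CARS1, IARS1 and MARS1 the match begins within 14 bases before the transcript start, and in TARS1 and NARS1 it begins 2 and 15 bases into the transcript. A match is a description of the letters and shows no binding in these cells.

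XG was lower in every library labelled as knockout. Its level was 45.4, 47.1 and 44.4 CPM (counts scaled to library size) in wildtype replicates 1, 2 and 3 and 30, 30 and 28.9 CPM in knockout replicates 1, 2 and 3, a log2 fold change of -0.63 (SE 0.0478, adjusted p = 1.65e-06 in edgeR). Library totals ranged from 22557187 to 31214099 counts. All 10 Ewing sarcoma markers were above 1 CPM (summed level 3360 to 3412 CPM in wildtype libraries against 3266 to 3293 CPM in knockout libraries, with CD99 called lower in edgeR, DESeq2 and limma voom), the 12 epithelial, endothelial and leukocyte markers were at or near 0, and 4 of 5 fibroblast markers were detected (summed level 73.3 to 78.9 CPM in wildtype libraries against 68.5 to 77.5 CPM in knockout libraries). Chi-square per gene was 4.33 to 6.24 between knockout replicates 1 and 2 and the other 4 libraries, 2.58 between those 2, and 2.15 to 2.38 between knockout replicate 3 and the wildtype libraries, so that knockout replicate 3 lay nearer to wildtype than to its own group.

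Of the 38 synthetase genes, 2 changed on knockout of XG, both cytosolic and both lower, and the other 36 did not pass the test. FARSA and VARS1 fell to 88% and 88.9% of wildtype. This is 5.26% of the members, against 1.36% of all genes tested (0.915% lower and 0.444% higher). With a correction for GC content 1 of the 38 was called, where 2.35% of all genes passed. The median SE of the log2 fold change was 0.064 over all genes tested and 0.034 over the synthetase genes. The transcripts of these genes summed to 0.675% ± 0.00351 of scaled counts in wildtype and 0.680% ± 0.00827 in knockout cells for the cytosolic class (SD, n = 3), and to 0.0967% ± 0.000624 and 0.0969% ± 0.000536 for the mitochondrial class. The median log2 fold change was 0.033 for cytosolic and 0.015 for mitochondrial members, beside 0.0019 for all genes tested. These medians were 0.014 and 0.0096 with a correction for GC content, and 0.012 and 0.0032 without knockout replicate 1.

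**Figure D1:**
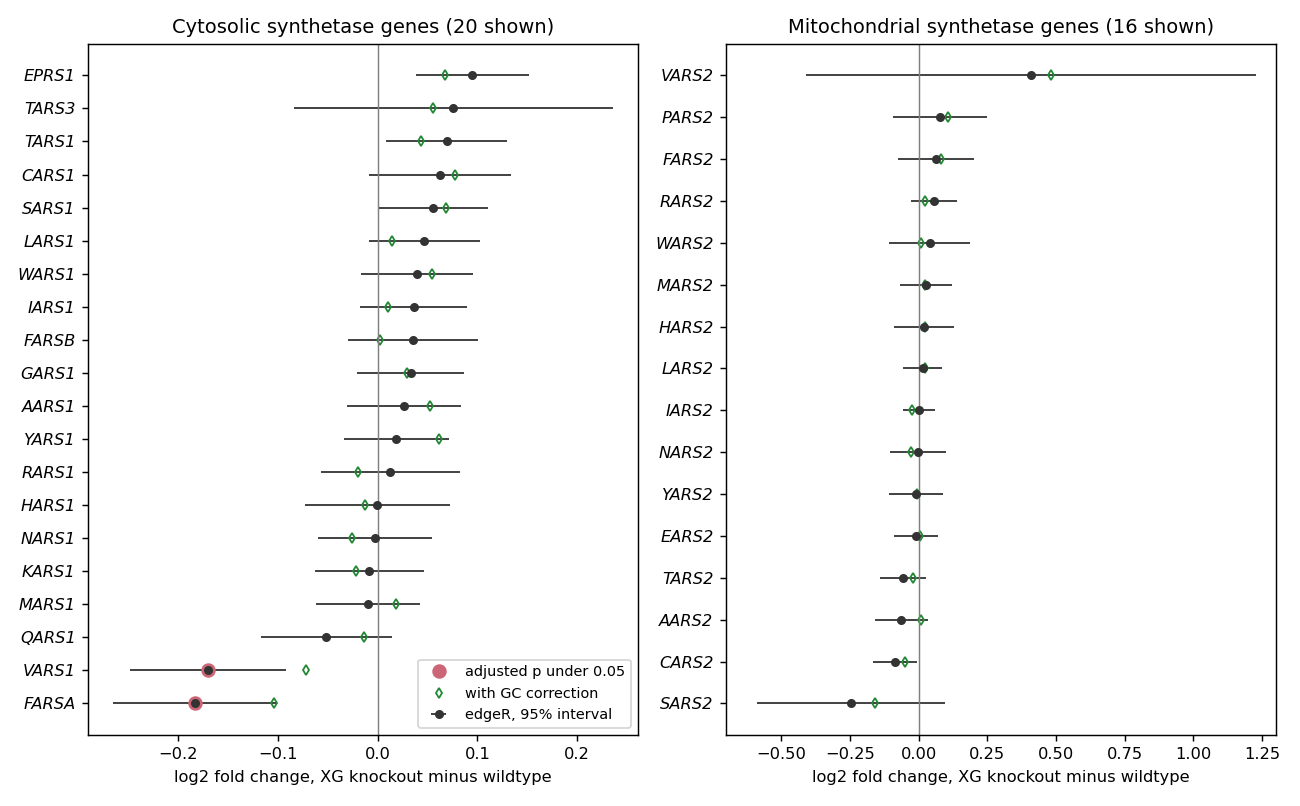
Log2 fold change of 36 synthetase genes (XG knockout minus wildtype), cytosolic members on the left and mitochondrial members on the right, whose horizontal axis is wider. Bars are 95% intervals, large points mark an edgeR adjusted p under 0.05 and open diamonds give the value after GC correction; FARSA and VARS1 are the called members, and the widest interval is that of VARS2, which had 5 to 18 counts.

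FARSA encodes the catalytic alpha subunit of cytosolic phenylalanyl-tRNA synthetase, a class II enzyme built from alpha and beta subunits. The gene (ENSG00000179115.11) lies on chromosome 19 from 12922479 to 12934037, minus strand, GRCh38. It stood at 214, 228 and 225 CPM in wildtype replicates 1, 2 and 3 and at 191, 187 and 210.0 CPM in knockout replicates 1, 2 and 3. The groups did not overlap, and knockout replicate 3 lay within 5 CPM of the lowest wildtype library. Its log2 fold change was -0.18 (SE 0.039, adjusted p = 0.0262 in edgeR). FARSB, which encodes the beta subunit of the same enzyme, stood at 251, 246 and 245 CPM in wildtype libraries against 263, 255 and 243 CPM in knockout replicates 1, 2 and 3, with a log2 fold change of 0.035 (SE 0.031, adjusted p = 0.62 in edgeR). The groups of FARSB overlapped. The ratio of FARSA to FARSB per length was 2.37, 2.57 and 2.56 in wildtype and 2.02, 2.04 and 2.4 in knockout libraries, so that knockout replicate 3 fell inside the wildtype range. The difference in this ratio had p = 0.2 in a two-sided exact permutation test, where 0.1 is the smallest p that 3 against 3 libraries allow. FARS2, the single-chain mitochondrial enzyme for the same amino acid, stood at 15.9, 15.9 and 14.7 CPM in wildtype libraries against 16.4, 16.3 and 16.0 CPM in knockout libraries and did not pass the test (edgeR adjusted p = 0.68).

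VARS1 encodes the cytosolic valyl-tRNA synthetase, a class I enzyme that works together with the elongation factor complex that delivers charged tRNA. The gene (ENSG00000204394.13) lies on chromosome 6 from 31777518 to 31795752, minus strand. VARS1 stood at 391, 400.5 and 389 CPM in wildtype libraries against 339, 333 and 377 CPM in knockout replicates 1, 2 and 3. The groups did not overlap, and as for FARSA knockout replicate 3 was the closest to wildtype. The log2 fold change was -0.17 (SE 0.0373, adjusted p = 0.0302 in edgeR). In the authors' deposited table FARSA and VARS1 are also the 2 members with an adjusted p under 0.05, at log2 fold changes of -0.18 and -0.17 with adjusted p = 0.00421 and 0.00464.

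Both calls depended on single libraries, and that of VARS1 also on a correction for the base composition of transcripts. With wildtype replicate 1, 2 or 3, or knockout replicate 1 or 2, left out, neither gene passed (edgeR adjusted p = 0.082 to 0.189 for FARSA and 0.0954 to 0.204 for VARS1), and with knockout replicate 3 left out both passed (1.28e-07 and 2.55e-08). The fit without knockout replicate 3 called 1851 of 14598 genes tested. With GC correction in it FARSA passed (edgeR adjusted p = 0.0262), VARS1 did not (0.181), and 386 genes were called. In the fits that lost the calls the log2 fold changes were -0.15 to -0.21 for FARSA and -0.14 to -0.18 for VARS1, close to those with all libraries, and 18 to 67 genes passed over the whole table, against 196. With knockout replicate 3 as the only knockout library the log2 fold changes were -0.083 and -0.06 and neither passed. This fit takes its spread from the wildtype libraries and assumes that the lone library varies like them. The longest transcripts of FARSA and VARS1 have GC contents of 60.3% and 62.6%, against a median of 48% over all genes tested. With a correction for GC content the log2 fold change of FARSA was -0.10 (SE 0.0262, adjusted p = 0.0227 in edgeR) and that of VARS1 was -0.072 (SE 0.0232, adjusted p = 0.0988 in edgeR), where 2.35% of all genes passed (1.09% higher and 1.26% lower). FARSA also lies on chromosome 19, whose 981 tested genes had a median log2 fold change of -0.095 before and -0.037 after the correction.

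**Figure D2:**
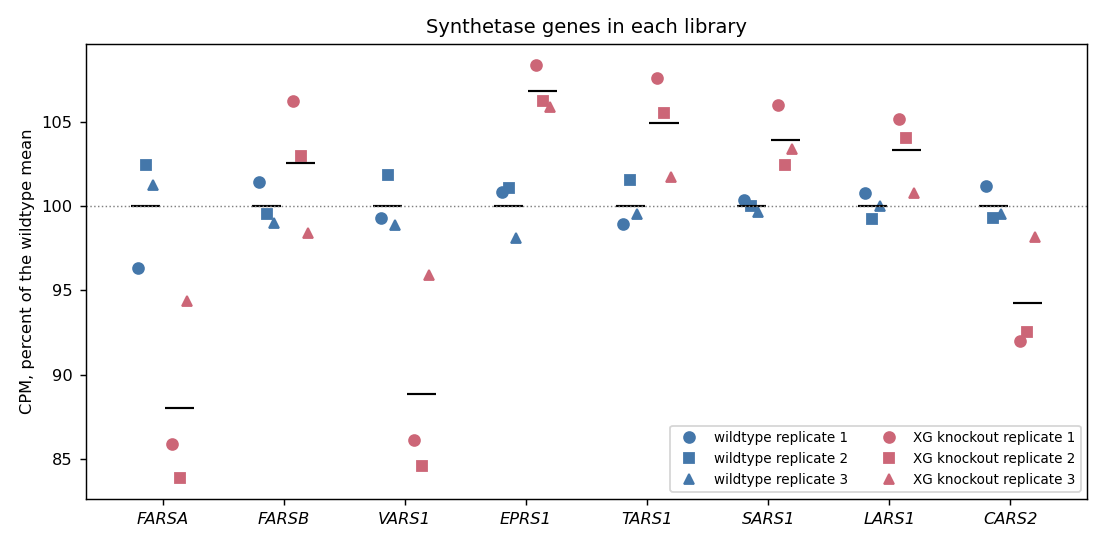
Level of 8 synthetase genes in each library as percent of the gene's wildtype mean; circles, squares and triangles are replicates 1, 2 and 3, and black lines are means of 3 libraries. Knockout replicate 3 lies nearer to wildtype than the other knockout libraries for FARSA, VARS1, TARS1, LARS1 and CARS2.

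The fold changes of the synthetases were lower at higher GC content. Over all 38 members Pearson's r between GC content and log2 fold change was -0.33 and Spearman's rho was -0.45, and after GC correction they were 0.053 and -0.040. Without VARS2, which had 5 to 18 counts, r over the other 37 members was -0.69 and rho was -0.55, and after GC correction -0.29 and -0.10. SARS2, at 81 to 154 counts, stayed among these 37, and its log2 fold change went from -0.43 to 0.039 over the alternative fits. Over the 21 cytosolic members, which leave out VARS2 and SARS2, r was -0.71 and rho was -0.54, and after GC correction -0.27 and -0.012. The genes share their libraries, and over 14359 genes tested with a value the same measures were -0.25 and -0.37 before and 0.016 and -0.0059 after the correction.

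**Figure D3:**
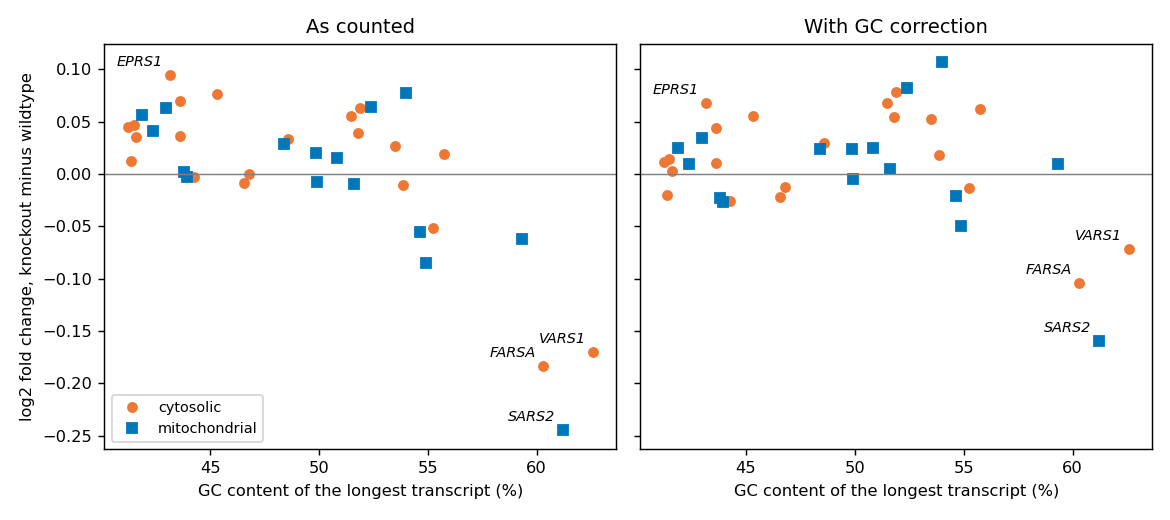
Log2 fold change (XG knockout minus wildtype) of 37 synthetase genes against the GC content of the longest transcript, as counted on the left and with GC correction on the right. The lowest points, FARSA, VARS1 and SARS2, have a GC content of 60.3%, 62.6% and 61.2%, and SARS2 had only 81 to 154 counts.

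Among the cytosolic members that did not pass, the smallest p belonged to EPRS1, the glutamyl-prolyl enzyme and the largest chain of the multi-synthetase complex. EPRS1 stood at 309, 309.9 and 301 CPM in wildtype libraries against 332, 326 and 325 CPM in knockout libraries, a log2 fold change of 0.095 (SE 0.027, adjusted p = 0.0878 in edgeR). The knockout libraries lay above all wildtype libraries. TARS1, the threonyl enzyme, stood at 275, 282 and 277 CPM in wildtype libraries against 299, 293 and 283 CPM in knockout libraries (log2 fold change 0.069, edgeR adjusted p = 0.232). Its highest wildtype and lowest knockout libraries differed by less than 1 CPM. SARS1, the seryl enzyme, which also charges the tRNA for selenocysteine, stood at 351, 350.1 and 349 CPM in wildtype libraries against 371, 359 and 362 CPM in knockout libraries (log2 fold change 0.055, edgeR adjusted p = 0.298). The groups of SARS1 did not overlap. CARS1, the cysteinyl enzyme, stood at 104, 108 and 103 CPM in wildtype libraries against 112, 110.0 and 107 CPM in knockout libraries, and its groups overlapped (edgeR adjusted p = 0.369). LARS1, the leucyl enzyme, also known as a leucine sensor of mTORC1 signalling, stood at 390.3, 384 and 387 CPM in wildtype libraries against 407, 403 and 390.3 CPM in knockout libraries, so that its groups met without overlapping (edgeR adjusted p = 0.399). QARS1, the glutaminyl enzyme, was on the other side, at 238, 248 and 249 CPM in wildtype libraries against 243, 228 and 238 CPM in knockout libraries (log2 fold change -0.052, edgeR adjusted p = 0.435), with overlapping groups. Only EPRS1 and TARS1 of these 6 had an unadjusted p under 0.05, and without knockout replicate 3 both were called (edgeR adjusted p = 0.00763 and 0.0176). That fit called 1851 of 14598 genes tested. With GC correction in it neither EPRS1 nor TARS1 was called (edgeR adjusted p = 0.255 and 0.345), and 386 genes passed.

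The remaining 13 cytosolic genes did not pass and had log2 fold changes from -0.01 for MARS1 to 0.076 for TARS3. For 18 of the 21 cytosolic genes the 95% interval of the fold lay within 15% of wildtype. The exceptions were FARSA, VARS1 and TARS3. IARS1, the isoleucyl enzyme and the most abundant member by counts, stood at 754, 757 and 759 CPM in wildtype libraries against 794, 778 and 755.5 CPM in knockout libraries, with an interval of 98.8% to 106% of wildtype. GARS1, the glycyl enzyme, stood at 482, 477 and 469 CPM in wildtype libraries against 487, 494 and 479.6 CPM in knockout libraries, and NARS1, the asparaginyl enzyme, at 438, 432 and 440.5 CPM in wildtype libraries against 448, 436 and 425 CPM in knockout libraries. IARS1, GARS1 and NARS1 each had a knockout library inside the wildtype range or below it. HARS1, the histidyl enzyme, stood at 96.1, 95 and 98.7 CPM in wildtype libraries against 98.2, 94.2 and 97.4 CPM in knockout libraries, with an interval of 95% to 105% of wildtype. TARS3 stood at 16.3, 14.9 and 15 CPM in wildtype libraries against 18, 16.2 and 14.8 CPM in knockout libraries, a spread that covers its difference. The libraries of the 2 groups did not overlap in 12 of 38 members, 8 higher and 4 lower, which is 31.6% against 20.5% of all genes tested (10.7% higher and 9.8% lower). The cytosolic members among them include EPRS1, TARS1, SARS1 and LARS1 on the higher side and FARSA and VARS1 on the lower side. At an unadjusted p under 0.05 there were 5 of 38 members, or 13.2%, against 16.8% of all genes tested.

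None of the 17 mitochondrial synthetase genes passed the test in edgeR, DESeq2 or limma voom, and 1, 0 and 1 of them had an unadjusted p under 0.05 in these tools. In edgeR this was 5.88%, against 16.8% of all genes tested. Over all genes the counts were 1415 of 27252 in DESeq2 and 2449 of 14425 in limma voom. CARS2, the mitochondrial cysteinyl enzyme, was the one with the smallest p. It stood at 77.1, 75.7 and 75.9 CPM in wildtype libraries against 70.1, 70.5 and 74.8 CPM in knockout libraries, a log2 fold change of -0.086 (SE 0.0385, adjusted p = 0.27 in edgeR). Without knockout replicate 3 CARS2 was called (edgeR adjusted p = 0.0337), where 1851 of 14598 genes passed. With GC correction in that fit it was not called (edgeR adjusted p = 0.474). Its knockout libraries lay below all wildtype libraries, replicate 3 by less than 1 CPM. RARS2, the arginyl enzyme, stood at 58.1, 55.9 and 58.2 CPM in wildtype libraries against 61, 59.3 and 58.8 CPM in knockout libraries, and TARS2, the threonyl enzyme, at 56.9, 57.7 and 56.1 CPM in wildtype libraries against 55.6, 54.6 and 54.3 CPM in knockout libraries. The groups of RARS2, FARS2, CARS2 and TARS2 did not overlap. YARS2, the tyrosyl enzyme, stood at 54.1, 51.1 and 52.7 CPM in wildtype libraries against 55.2, 52.4 and 49.6 CPM in knockout libraries. IARS2, the isoleucyl enzyme and the most abundant mitochondrial member, stood at 239, 234 and 237 CPM in wildtype libraries against 239.1, 238.9 and 233 CPM in knockout libraries, with an interval of 96.1% to 104% of wildtype. For 14 of 17 mitochondrial genes the interval lay within 15% of wildtype, and the exceptions were SARS2, VARS2 and PARS2.

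Levels were next compared between genes after division by exonic length, as CPM per kilobase. Cytosolic members had a median of 59.1 and mitochondrial members a median of 9.77 CPM per kilobase in wildtype cells. The highest cytosolic members were GARS1 at 119 ± 1.66, NARS1 at 107 ± 1.03 and IARS1 at 102 ± 0.312 CPM per kilobase (SD, n = 3). The lowest were TARS3 at 3.46 ± 0.169, CARS1 at 10.5 ± 0.227 and HARS1 at 12.8 ± 0.253 CPM per kilobase. TARS3 is a second threonyl-tRNA synthetase of the cytosol, and TARS1 was 14.1 ± 0.819 times as high per length. Among mitochondrial members IARS2 was highest, at 57.3 ± 0.582 CPM per kilobase, followed by YARS2 at 24.5 ± 0.71 and RARS2 at 19.3 ± 0.434. IARS2 was the only mitochondrial member above 30 CPM per kilobase, a level passed by 17 of 21 cytosolic members. The length is that of all annotated exons merged, which can exceed that of the transcripts present and then lowers the value.

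Each cytosolic gene was above its mitochondrial partner per length in every library, in 18 of 18 pairs for the same amino acid, where EPRS1 and FARS2 each enter 2 pairs. The wildtype ratio ranged from 1.43 for CARS1 over CARS2 to 68.4 for SARS1 over SARS2, and was higher still for VARS1 over VARS2, where the 5 to 18 counts of VARS2 leave it undetermined. Exons of another gene cover 46.2% of the exonic bases of SARS2. Fragments overlapping both genes are in no count, although the full exonic length divides the level. The ratio of 68.4 may therefore be too high, by an amount that was not tested. Among the pairs closest to each other were those of cysteine (1.43 ± 0.0399), histidine (1.69 ± 0.0169), isoleucine (1.79 ± 0.0213) and arginine (1.80 ± 0.0628). The widest beside serine and valine were FARSA over FARS2 at 28.6 ± 1.87 and WARS1 over WARS2 at 18.4 ± 0.911 (SD, n = 3). On knockout, CARS1 over CARS2 went from 1.43 ± 0.0399 to 1.59 ± 0.0865, TARS1 over TARS2 from 3.48 ± 0.0342 to 3.79 ± 0.069, EPRS1 over EARS2 from 4.99 ± 0.143 to 5.37 ± 0.144 and IARS1 over IARS2 from 1.79 ± 0.0213 to 1.83 ± 0.0244, with all knockout libraries above all wildtype libraries in each. FARSA over FARS2 went from 28.6 ± 1.87 to 24.0 ± 1.77 and MARS1 over MARS2 from 5.34 ± 0.0883 to 5.20 ± 0.0596, with all knockout libraries below. These ratios carry no GC correction. GC content was 51.9% for CARS1 and 54.9% for CARS2, and 43.6% and 54.6% for TARS1 and TARS2. It was 43.2% and 51.6% for EPRS1 and EARS2, and 43.6% and 43.8% for IARS1 and IARS2. For FARSA and FARS2 it was 60.3% and 52.4%, and for MARS1 and MARS2 53.8% and 48.4%. The part of GC content in these ratios was not tested. In the other 14 ratios tested the groups overlapped. Two-sided exact permutation tests gave p = 0.1 for each of the 6 ratios whose groups did not overlap, the smallest possible value. The Benjamini-Hochberg adjusted value was 0.333 over the 20 ratios tested. Because the smallest possible p lies above the threshold, no ratio could pass, and these tests cannot decide if a ratio changed.

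**Figure D4:**
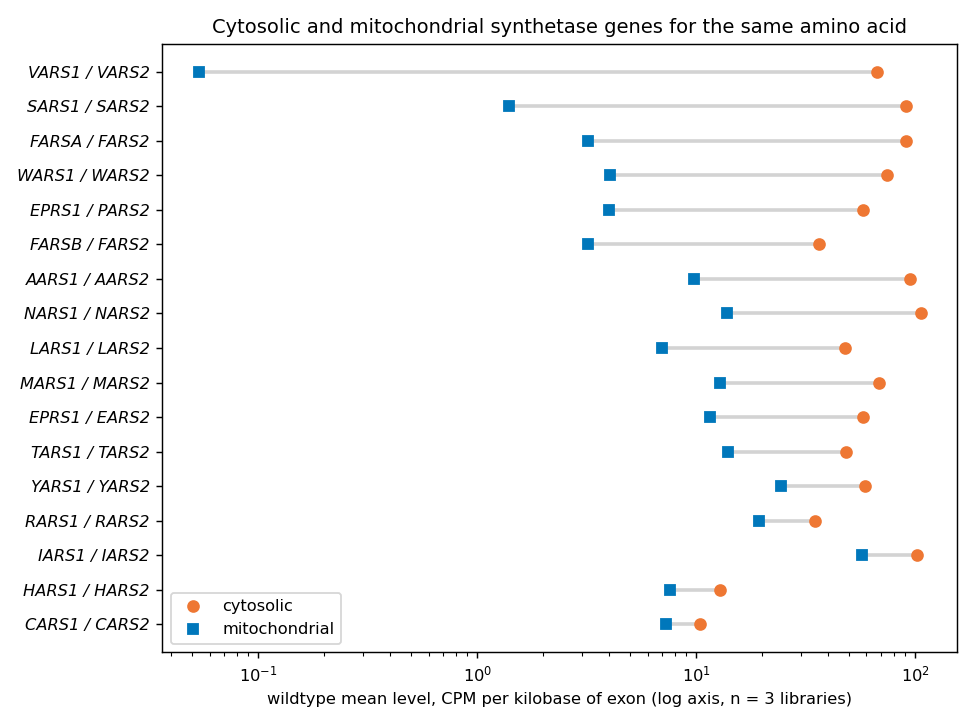
Wildtype mean level, in CPM per kilobase of exon on a log axis, of the cytosolic (circles) and mitochondrial (squares) gene for the same amino acid, sorted by their ratio. The cytosolic gene is to the right in all 17 pairs shown. VARS2 and SARS2, whose exons overlap most with those of another gene, are the lowest mitochondrial members.

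VARS2 and SARS2 were the lowest members, and they are also the members whose exons overlap most with those of another gene on the same strand. VARS2, the mitochondrial valyl enzyme, had 11, 5 and 10 counts in wildtype and 10, 18 and 11 counts in knockout libraries. The counts of VARS2 overlapped between groups. SARS2, the mitochondrial seryl enzyme, had 154, 86 and 104 counts in wildtype and 81, 124 and 121 counts in knockout libraries. The groups of SARS2 overlapped as well (5.57, 3.30 and 4.63 CPM in wildtype, 3.25, 3.92 and 4.18 CPM in knockout libraries). Exons of AL669830.2, annotated as a long noncoding RNA, cover 63% of the exonic bases of VARS2, and exons of AC011455.2, annotated as protein-coding, cover 46.2% of those of SARS2. Both overlapping rows had at most 1 count in any library. No other member had more than 4.09% of its exonic bases shared, the value of HARS2 with ZMAT2, and QARS1, MARS1 and TARS2 shared from 0.896% to 1.62% with a microRNA. No option to count fragments that overlap several genes was set, so such fragments are in no count. The part of this overlap in their low counts was not tested. All 14 rows of synthetase pseudogenes held 0 counts.

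The cytosolic members listed as ATF4 targets had mostly positive fold changes, and none of the 12 passed in edgeR, DESeq2 or limma voom (2, 2 and 3 at an unadjusted p under 0.05). In edgeR this was 16.7% of the list, against 16.8% of all genes tested. Over all genes the counts were 1415 of 27252 in DESeq2 and 2449 of 14425 in limma voom. Of the 12 listed genes 10 had a positive log2 fold change, with a median of 0.038 and a range from -0.01 for MARS1 to 0.095 for EPRS1. Over all genes tested 7341 of 14425 were positive, with a median of 0.0019. The 2 negative listed genes, MARS1 and NARS1, both carry the promoter letters given above, as do the positive AARS1, CARS1, GARS1, IARS1 and TARS1. Whether the letters go with the direction was not tested. Of the 9 other cytosolic members 4 were positive, with a median of -0.00039. After GC correction 11 of 12 and 3 of 9 were positive, with medians of 0.048 and -0.013. The difference between these lists was not tested, and the list was chosen when some other ATF4 targets were already known to be higher in the knockout libraries. In knockout replicates 1, 2 and 3 the median of the 12 listed genes lay 0.067, 0.038 and 0.022 above the wildtype mean on the log2 scale, with 12, 9 and 9 genes above it. For the 9 others the medians were 0.0028, -0.0052 and -0.023. With each library left out in turn 10 to 11 of the 12 were positive, and over all 22 alternatives 9 to 11.

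**Figure D5:**
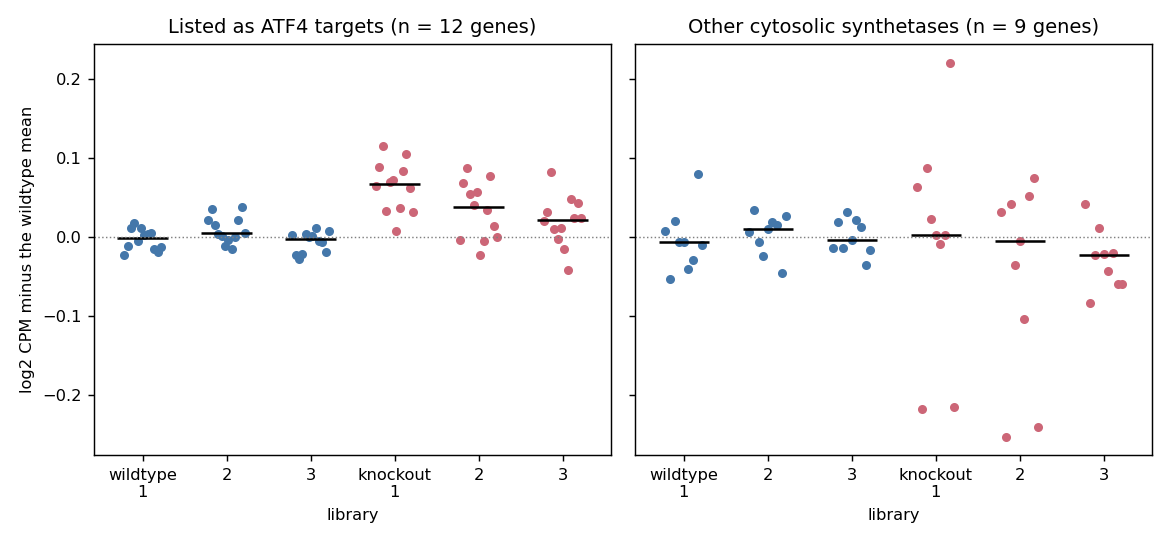
Log2 CPM of each cytosolic synthetase gene minus its wildtype mean, by library, for the 12 genes listed as ATF4 targets (left) and the 9 others (right); each point is a gene and black lines are medians. The medians of the listed genes were 0.067, 0.038 and 0.022 in knockout replicates 1, 2 and 3; the lowest points on the right are FARSA and VARS1.

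The wider amino acid response gave the following counts. Of 35 tested genes of the amino acid response outside the synthetase family 4 rose, 1 fell and 30 did not pass in edgeR, which is 14.3% called against 1.36% of all genes tested. The list was chosen with earlier results of these data known, so this share describes the listed genes and is not a test of the response. In all, 28 were positive and the median was 0.052 on the log2 scale, beside 7341 of 14425 genes tested and a median of 0.0019. ALDH1L2, a mitochondrial folate enzyme, CHAC1, which degrades glutathione, SESN2 and DDIT4, both inhibitors of mTORC1 signalling, rose, and ATF5, a transcription factor related to ATF4, fell. DESeq2 and limma voom each called 4 of these 5 and not DDIT4, whose adjusted p was 0.0419 in edgeR, 0.229 in DESeq2 and 0.0537 in limma voom. With GC correction DDIT4 had a log2 fold change of 0.40 (edgeR adjusted p = 2.47e-05). In that fit 7 of the 35 rose and 1 fell, where 2.35% of all genes passed. The log2 fold changes of ALDH1L2, CHAC1, SESN2 and DDIT4 were 0.26, 0.43, 0.34 and 0.34, each larger than that of any synthetase gene except VARS2. Of 9 genes of eIF2 and its kinases none passed in edgeR, with 1 at an unadjusted p under 0.05 (11.1%, against 16.8% of all genes tested). EIF2S2, the beta subunit of eIF2, had the smallest p at a log2 fold change of 0.077 (edgeR adjusted p = 0.172) and IMPACT, a regulator of GCN2, followed at 0.084 (edgeR adjusted p = 0.357).

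No gene of the multi-synthetase complex, of indirect charging and formylation in mitochondria, or of the elongation factors passed the test. Of the 3 scaffold genes of the multi-synthetase complex none passed in edgeR, and AIMP1 stood at 70 ± 2.64 CPM in wildtype libraries against 73.9 ± 1.43 CPM with XG knocked out (SD, n = 3; log2 fold change 0.077, edgeR adjusted p = 0.339), with EEF1E1 at a log2 fold change of -0.035. The 8 enzymes of that complex were positive in 5 cases, and their median was 0.024 on the log2 scale, beside 7341 of 14425 genes tested and a median of 0.0019. Neither FARSA nor VARS1 belongs to it. None of the 4 genes for indirect charging and formylation of mitochondrial tRNA passed, with MTFMT, the formyltransferase of the initiator tRNA, at a log2 fold change of 0.085 (edgeR adjusted p = 0.478) and GATC, an amidotransferase subunit, at 0.037. Of the elongation factor genes none of 5 cytosolic and none of 4 mitochondrial genes passed. EEF2 had a log2 fold change of -0.12 (edgeR adjusted p = 0.11) and TUFM, the mitochondrial elongation factor Tu, one of -0.10 (edgeR adjusted p = 0.0895), with GC contents of 59.9% and 57.6%. EEF1D and GFM1, the next of each list, had log2 fold changes of -0.098 and 0.042. The count of called genes was 0 for these lists and for eIF2 and its kinases in DESeq2 and limma voom too. In edgeR, counts at an unadjusted p under 0.05 were 0 scaffold, 0 indirect charging, 2 cytosolic elongation and 1 mitochondrial elongation genes. These are 0%, 0%, 40% and 25% of these short lists, against 16.8% of all genes tested.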

How the data were processed

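The rule that finds the members uses no measured value, but this gene family, the gene lists and the motifs were chosen with earlier results of these data known. Reads were processed with STAR 2.7.6a on GRCh38, per the submitters' processing notes. The authors deposited a table of raw fragment counts. Per the file headers, featureCounts (Subread 2.0.1) summed paired-end, reverse-strand fragments over GENCODE 33 exons, with no option for multi-mapping or overlapping fragments. The authors' deposited table gives log2 fold changes, scaled mean signal over libraries, a Wald score and p-values, attributed to DESeq2 1.38.3 in the submitters' processing notes. Its direction is not stated, and its sign matched knockout minus wildtype in 38 of 38 members. The deposited table also lists exonic length and other annotation.

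Genes were kept by filterByExpr (minimum count 10, minimum total 15; 14425 genes), scaled by trimmed mean of M values and tested with edgeR 4.0.16 (quasi-likelihood, two-sided, no covariates) under R 4.3.3. Adjusted p-values follow Benjamini-Hochberg across the 14425 genes, and 0.05 was the threshold. Alternatives used DESeq2 1.42.0 and limma 3.58.1. Intervals (95%) and SEs come from the fit and cover the spread between libraries. The GC correction removed a lowess trend (span 0.5) of log2 CPM on the GC content of the longest GENCODE transcript of an earlier release; all 38 members and 99.5% of genes tested had a value. Per-library values are given for called members, the 8 cytosolic and 5 mitochondrial members of smallest p and the 3 highest and 3 lowest per length in each class, and from each list the called genes or the 2 of smallest p. Some members enter the counts and medians but are not reported here by name. On simulated data for XG knockout against wildtype with 14425 genes, 24%, 62%, 82% and 90% of genes changed 1.1-fold, 1.2-fold, 1.5-fold and 2-fold were recovered. Of 138 calls 9 were false. The changed genes were drawn from genes of all levels, and each gene was simulated independently, without a GC trend. These rates are therefore not those of the synthetase genes.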

Additional observations from a re-analysis of the deposited data

How the results depend on the processing

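The count of all genes called was 196, and 647 without a filter on low counts, 37 with the replicate number as a block, 339 with GC correction, 18 to 1851 with 1 library left out (1851 without knockout replicate 3), 131 to 393 with GC correction and 1 library left out (386 without knockout replicate 3), and 125 with knockout replicate 3 alone. The count of cytosolic synthetases called was 2, and 1 with at least 100 counts in 3 libraries, 1 with GC correction, 0 with the replicate block, 0 with the replicate block and GC correction, 0 to 4 with 1 library left out, 0 to 2 with GC correction and 1 library left out, and 0 with knockout replicate 3 alone. The count of mitochondrial synthetases called was 0 and reached 1 without knockout replicate 3. The cytosolic median log2 fold change of 0.033 became 0.014 with GC correction, 0.014 with the replicate block and GC correction, 0.011 with knockout replicate 3 alone, 0.012 to 0.037 with 1 library left out and 0.0039 to 0.018 with GC correction and 1 library left out (0.013 without wildtype replicate 3). The mitochondrial median of 0.015 became 0.025 with upper quartile scaling, 0.0076 with the stricter filter, 0.0096 with GC correction, 0.0023 with knockout replicate 3 alone, 0.0032 to 0.029 with 1 library left out and 0.0048 to 0.024 with GC correction and 1 library left out. The cause of these shifts was not tested. FARSA was called in 11 and VARS1 in 7 of 22 alternatives, both negative in all of them; with the replicate block their adjusted p was 0.063 and 0.086 at log2 fold changes of -0.19 and -0.17, and that of VARS1 was 0.0508 with the stricter filter at -0.17, so the folds did not shrink. Same-numbered libraries did not deviate together (correlations -0.056, -0.059 and -0.064). Deviations from a mean of 3 libraries are tied to each other, so these values cannot decide if the numbers pair the libraries. Of 483 values of 22 followed members under the alternatives, 26 lost and 3 gained a call, 0 reversed a called direction and 34 changed sign between values that were not called. XG was called in all 22.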

Other observations

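Of 21 genes for tRNA maturation, export and proofreading, 0 passed in edgeR, DESeq2 or limma voom, and 6, 2 and 6 had an unadjusted p under 0.05. In edgeR this was 28.6%, against 16.8% of all genes tested. Over all genes the counts were 1415 of 27252 in DESeq2 and 2449 of 14425 in limma voom. The smallest p belonged to TSEN34, a subunit of the tRNA splicing endonuclease, which stood at 78.0 ± 4.68 CPM in wildtype libraries and 70.2 ± 2.67 CPM with XG knocked out (SD, n = 3, log2 fold change -0.15, edgeR adjusted p = 0.0984). LAGE3, a subunit of the complex that modifies tRNA at the position next to the anticodon, followed at a log2 fold change of -0.17 (edgeR adjusted p = 0.16). The GC contents are 63.7% and 64.6%, and with GC correction the edgeR adjusted p was 0.617 and 0.7.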
